A study of Mus musculus with 12 samples.

Results

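The genes of cytochrome P450 families 2 to 4 were followed in newborn mouse liver and lung. A gene was taken when its symbol was Cyp, the family number 2, 3 or 4, a letter for the subfamily and a closing number, and when it had at least 60 counts summed over the 12 libraries. Of 24421 genes listed, 72 had such a symbol, 18 of them stayed under the minimum, and 54 were kept. Family 2 had 34 of them, family 3 had 7 and family 4 had 13, and the subfamilies with the most members were Cyp2c (11), Cyp2d (7), Cyp3a (7) and Cyp4f (7). Symbols that end in a letter, such as *Cyp3a41a* or *Cyp4a12a*, lie outside the pattern.

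P450 enzymes of these families sit in the membrane of the endoplasmic reticulum, where a haem held by a cysteine binds oxygen, and P450 reductase supplies the electrons to insert it into a substrate. Families 2 and 3 oxidise drugs, steroids, bile acids and arachidonic acid, while enzymes of family 4 hydroxylate the far end of fatty acids. The liver cell is their main site, many of the genes are switched on around birth, and nuclear receptors that sense foreign compounds, bile acids or fatty acids control much of their expression.

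The study bred mice heterozygous for the *Man1a2*tm1.1Ahe allele, in which exon 2 of the gene for a Golgi α-mannosidase is deleted, and collected liver and lung of newborn pups within the hour after birth. Liver and lung came from 3 WT (Man1a2+/+) and 3 null (Man1a2-/-) pups, which gave 3 libraries per tissue and genotype. Null pups carry the deletion in every cell, and their breathing fails after birth, so effects within a tissue cannot be told apart from effects of the whole animal. Strain, litter and treatment beyond the genotype are not given in the sources used here, so the p-values measure the spread between these pups only.

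Libraries held 26759463 to 42914295 counts, and 3 counts in 1 library came to 0.0699 to 0.112 CPM (counts scaled to a common library size) before TMM scaling. This was taken as the smallest level these depths show, with counting error only. Levels are CPM scaled with TMM factors over all 12 libraries, and levels per kb divide them by the length of all exons of the gene. The factors were 0.672 to 0.828 in liver and 1.19 to 1.39 in lung, so 3 counts are a higher scaled level in liver and a lower one in lung. *Man1a2* was at 54.2 to 87.0 CPM in WT liver against 48.2 to 53.7 CPM in null liver, and at 75.5 to 107 CPM in WT lung against 42.7 to 50.2 CPM in null lung, without overlap in either tissue but also without passing the test (adjusted p = 0.0809 and 0.0614 with edgeR's quasi-likelihood test). Counts are per gene, so reads from exons other than the deleted exon 2 are part of these levels. The 8 hepatocyte markers summed to 131858 to 205342 CPM in liver and 26.3 to 407 CPM in lung, and 0 of them changed in null liver. Among the livers, the log2 levels of null liver 1 correlated with those of the others at 0.920 to 0.947. The other livers reached up to 0.993 among themselves, and liver fits without each library are given below. One lung library, null lung 1, stood further apart. Its log2 levels correlated with those of the other lungs at 0.790 to 0.817, where those lungs reached up to 0.994 among themselves, and its alveolar type 2 markers summed to 63.3 CPM against 19836 to 25846 CPM. Lung results are therefore given with and without it. Without it, *Man1a2* passed the test in lung as lower in null (log2 fold change −0.95, SE 0.16, adjusted p = 0.0043 with edgeR's quasi-likelihood test).

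Sequence shows which members the counts can separate, and for this reason the 30 coding bases around the cysteine that holds the haem are shown for the members that changed most in liver, 5′ to 3′ on the coding strand with the cysteine codon in capitals. They come from GENCODE M21 on GRCm38. The window crosses an intron in each of these genes, so it spans chr4:115529502-115532543 in *Cyp4a10*, chr4:115487299-115489805 in *Cyp4a14*, chr19:39689234-39699270 in *Cyp2c68* and chr19:40153738-40156732 in *Cyp2c70*.
Cyp4a10, Cyp4a31 and Cyp4a32: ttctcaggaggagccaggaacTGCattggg
Cyp4a14: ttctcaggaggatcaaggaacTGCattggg
Cyp2c40, Cyp2c67, Cyp2c68 and Cyp2c69: ttctcagcaggaaaacggattTGTgtggga
Cyp2c70: ttctcagcaggaagaagagctTGTattgga

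*Cyp4a10*, *Cyp4a31* and *Cyp4a32* had the same loop and 96.0 to 97.2% identical coding sequences, whereas *Cyp4a14* was 76.2 to 76.9% identical to them. *Cyp2c40*, *Cyp2c67*, *Cyp2c68* and *Cyp2c69* also had the same loop, and *Cyp2c70* was at most 69.9% identical to any other Cyp2c member. Reads were 75 bases long, so each coding sequence was searched for windows of 75 bases that also occur in a transcript of another gene. Such windows made up 61.7% of *Cyp2c40*, 48.4% of *Cyp2c69*, 32.4% of *Cyp2c68*, 30.4% of *Cyp4a32*, 26.5% of *Cyp4a10* and 22.2% of *Cyp4a31*. *Cyp4a14* and *Cyp2c70* had 0 such windows, as did 15 of the 53 members with a coding sequence. Counts of members that share windows could have been split between copies, so their sums are given as well.

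The first question was which of these enzymes are expressed in each tissue at birth. In WT liver, 46 of the 54 members had a mean of at least 1 CPM and 16 reached 100 CPM, against 16 and 1 in WT lung. Of 51 members tested between WT liver and WT lung, 47 passed the test of an adjusted p under 0.05 and at least 1.2-fold, 43 higher in liver and 4 higher in lung. Among all genes, 77% passed, 37.2% higher in liver and 39.8% higher in lung, and the median log2 difference of liver over lung was 8.73 for the members and −0.04 for all genes tested. The tissues did not overlap for 47 members, against 81.3% of all genes, and 47 had an unadjusted p under 0.05, against 79.6%. The remaining *Cyp4f16*, *Cyp4f18*, *Cyp4f39* and *Cyp4v3* did not pass.

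Per kb of exon, *Cyp2e1*, which oxidises ethanol and acetone, had the highest level in WT liver with 632 ± 84.6 CPM per kb (SD, n = 3 here and below). *Cyp2d26* with 580 ± 73.4 and *Cyp4a14* with 487 ± 133 CPM per kb came next. The spreads of these neighbours overlap, so their order is not fixed by 3 libraries. *Cyp3a16*, known as a fetal and newborn form of the Cyp3a enzymes, was at 205 ± 49.3 CPM per kb. *Cyp3a11*, the main drug-metabolising form of the adult liver, was at 172 ± 66.8 CPM per kb and *Cyp3a25* at 155 ± 28.1 CPM per kb, again with overlapping spreads. *Cyp2c68* was at 147 ± 2.73 and its close copy *Cyp2c69* at 125 ± 45.6 CPM per kb, with overlapping spreads.

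In WT lung the order was another. *Cyp2f2*, the enzyme by which club cells of the airways activate naphthalene, was at 120 ± 41.3 CPM per kb. *Cyp4b1*, a fatty acid hydroxylase of the lung, was at 28.5 ± 2.12 and *Cyp2s1*, an enzyme found mostly outside the liver, at 12.2 ± 1.39 CPM per kb. *Cyp4v3* followed with 8.76 ± 1.30 CPM per kb, and *Cyp2d22* with 4.49 ± 0.409 CPM per kb. These means lie further apart than the spreads of their neighbours.

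**Figure D1:**
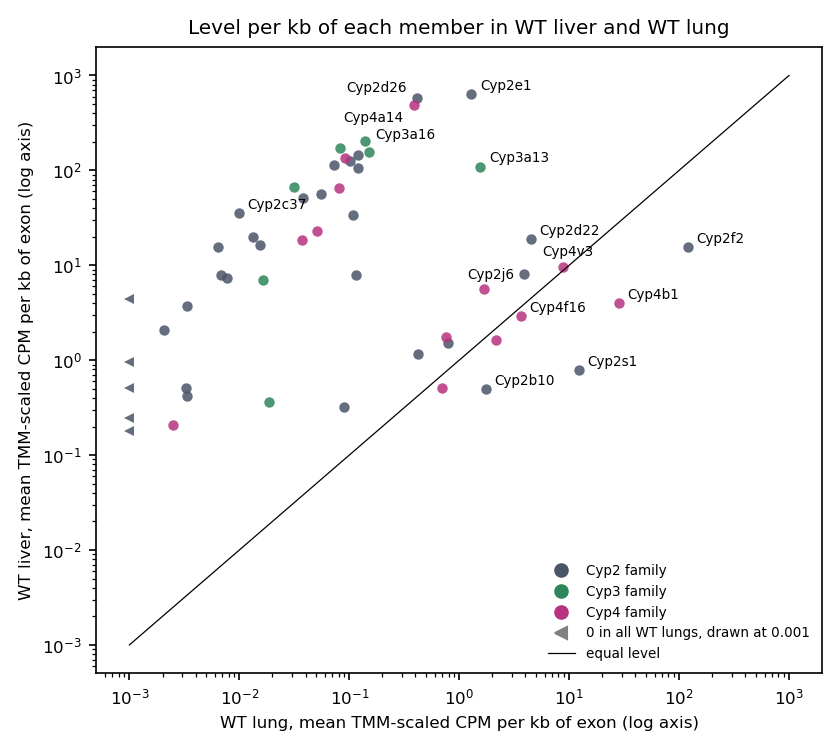
Each point is 1 member, with its mean level per kb of exon over 3 WT lungs on the x axis and over 3 WT livers on the y axis (TMM-scaled CPM per kb, log axes), coloured by family; triangles are members with 0 counts in all WT lungs, drawn at 0.001. Most members lie far above the line of equal levels, while Cyp2f2, Cyp4b1, Cyp2s1 and Cyp2b10 lie below it and so do Cyp4f16, Cyp4f18 and Cyp4f39, which did not pass the test.

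The members that were higher in lung did so in every library. *Cyp2f2* was at 179, 338 and 214 CPM in WT lungs 1, 2 and 3 and at 35.0, 38.7 and 20.5 CPM in WT livers, a ratio of the summed counts of 7.57 and a log2 difference of liver over lung of −2.95 (SE 0.29, adjusted p = 1.15e-05 with edgeR's quasi-likelihood test). *Cyp4b1* was at 60.1, 69.5 and 63.5 CPM in lung and 8.23, 8.54 and 10.1 CPM in liver (−2.83, SE 0.11, adjusted p = 2.87e-08). *Cyp2s1* was at 52.4, 63.5 and 64.9 CPM in lung and 4.11, 3.88 and 3.59 CPM in liver (−3.95, SE 0.12, adjusted p = 8.54e-09). For these genes no lung library came near a liver library. *Cyp2b10*, the target by which activity of the receptor CAR is usually read, was low in both tissues, with 2.10 to 5.69 CPM in lung and 0.908 to 1.34 CPM in liver (−1.79, SE 0.38, adjusted p = 0.00197).

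In the other direction, 35 members were at least 6 log2 units higher in WT liver than in WT lung. *Cyp2a22* had 1237 counts over the WT livers and 0 over the WT lungs, which makes it at least 700 times higher in liver when the lungs are set at 3 counts for the group. *Cyp3a11* was 1745 times higher (95% interval of the counting error 1377 to 2248), and *Cyp2e1* 443 times (403 to 488). Both ratios rested on WT lung 1, which held 1.11 CPM of *Cyp3a11* against 0.0526 and 0.0882 CPM in WT lungs 2 and 3. Without it, the log2 difference of *Cyp3a11* was 13.51 in place of 10.90, and that of *Cyp2e1* 9.85 in place of 8.92. Other members differed less between the tissues. *Cyp2d22* was 4.25 times higher in liver (4.05 to 4.46), *Cyp4f13* 3.33 times and *Cyp2j6* 2.08 times, and all of them passed the test. *Cyp4v3*, which did not pass, was at 1.13 times.

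The 35 liver members were read in lung beside markers of the hepatocyte. Their sum was 22.0, 6.82 and 8.23 CPM in WT lungs 1, 2 and 3 and 18.0, 23.1 and 10.1 CPM in null lungs 1, 2 and 3, while the 8 hepatocyte markers summed to 398, 26.3 and 39.2 CPM and to 49.5, 407 and 140 CPM in the same libraries. Both sums were highest in WT lung 1 and null lung 2, in which they came to 0.285% and 0.299% of the mean WT liver for the members and to 0.260% and 0.266% for the markers. Their part in the lung counts of these members was not tested. *Cyp3a13*, 1 of the 35, was not high in these libraries, with 4.71, 4.45 and 4.68 CPM in WT lungs and 5.42, 3.56 and 2.73 CPM in null lungs, and made up much of the sum in WT lungs 2 and 3. *Cyp2a5* was highest in null lung 1.

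Promoter sequences, 250 bases before the start of the transcript to 50 after it, were given by RefSeq on GRCm38.p6 for 44 members with 49 promoters. Both strands were searched for AGGTCA, the half-site of many nuclear receptors, for a direct repeat of it with 1 base between (DR1), for GTTAAT, a half-site of HNF1, for TATAAA and for TTGCGCAA, a site of C/EBP factors. AGGTCA was in 16 of the 49 promoters (32.7%) and in 16.3% of all 32851 promoters, GTTAAT in 8 (16.3%) and 7.10%, and TATAAA in 21 (42.9%) and 13.6%. The longer motifs were in 0 of the 49, and in 0.0396% and 0.183% of all, so rare that 0 of 49 says little. Promoters of *Cyp4a10*, *Cyp4a14* and *Cyp4a31* were not among the 49 and were not searched. Promoters of close copies share sequence, so the 49 are not independent. Those of *Cyp2c70* (chr19:40187237-40187536, minus strand), *Cyp2c68* (chr19:39741052-39741351, minus strand) and *Cyp4a32* (chr4:115600688-115600987, plus strand) are shown because these genes changed in null liver, with the matches in capitals.
Cyp2c70: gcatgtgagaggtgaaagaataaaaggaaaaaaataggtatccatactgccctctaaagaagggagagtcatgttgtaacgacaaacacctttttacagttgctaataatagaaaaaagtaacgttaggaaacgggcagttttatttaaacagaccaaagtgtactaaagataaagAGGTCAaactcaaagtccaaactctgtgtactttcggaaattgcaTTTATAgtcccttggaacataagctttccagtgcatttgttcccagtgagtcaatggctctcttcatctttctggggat
Cyp2c68: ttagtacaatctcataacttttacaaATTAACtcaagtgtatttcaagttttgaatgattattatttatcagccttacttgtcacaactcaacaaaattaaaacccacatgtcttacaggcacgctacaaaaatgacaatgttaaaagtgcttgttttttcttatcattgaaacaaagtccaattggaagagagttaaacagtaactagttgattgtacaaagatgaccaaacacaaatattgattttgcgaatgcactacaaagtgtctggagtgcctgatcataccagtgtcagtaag
Cyp4a32: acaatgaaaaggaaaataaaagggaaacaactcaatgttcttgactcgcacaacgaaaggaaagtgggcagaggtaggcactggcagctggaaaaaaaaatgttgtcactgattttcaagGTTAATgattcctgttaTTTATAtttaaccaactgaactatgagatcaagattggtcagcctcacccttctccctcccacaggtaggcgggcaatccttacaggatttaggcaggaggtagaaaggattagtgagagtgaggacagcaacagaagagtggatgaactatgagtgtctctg

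The *Cyp2c70* promoter held AGGTCA at −74 and TATAAA, on the other strand, at −29 from the start. That of *Cyp2c68* held GTTAAT at −224, on the other strand, and that of *Cyp4a32* held GTTAAT at −130 and TATAAA, on the other strand, at −113. A match is a description of letters and not a site.

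The second question was which enzymes differed between null and WT liver. All 54 members could be tested, and 18 (33.3%) were called, 7 higher and 11 lower in null. Among all genes tested, 26.9% were called, 13.5% higher and 13.4% lower. The genotypes did not overlap for 24 members, against 46.6% of all genes, and 23 had an unadjusted p under 0.05, against 41.4%. DESeq2 called 22 members, against 29.8% of all genes. The median log2 fold change was −0.02 for the members and 0.02 for all genes, so the members as a whole did not shift to 1 side. Read by subfamily the calls were uneven: 4 of 4 Cyp4a members fell, 5 of 11 Cyp2c members rose and 0 fell, 1 of 7 Cyp3a members fell, and 0 of 4 Cyp2a and 0 of 3 Cyp2b members were called. A lower count in bulk tissue can mean fewer cells of a type or less RNA per cell, and these cannot be told apart.

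**Figure D2:**
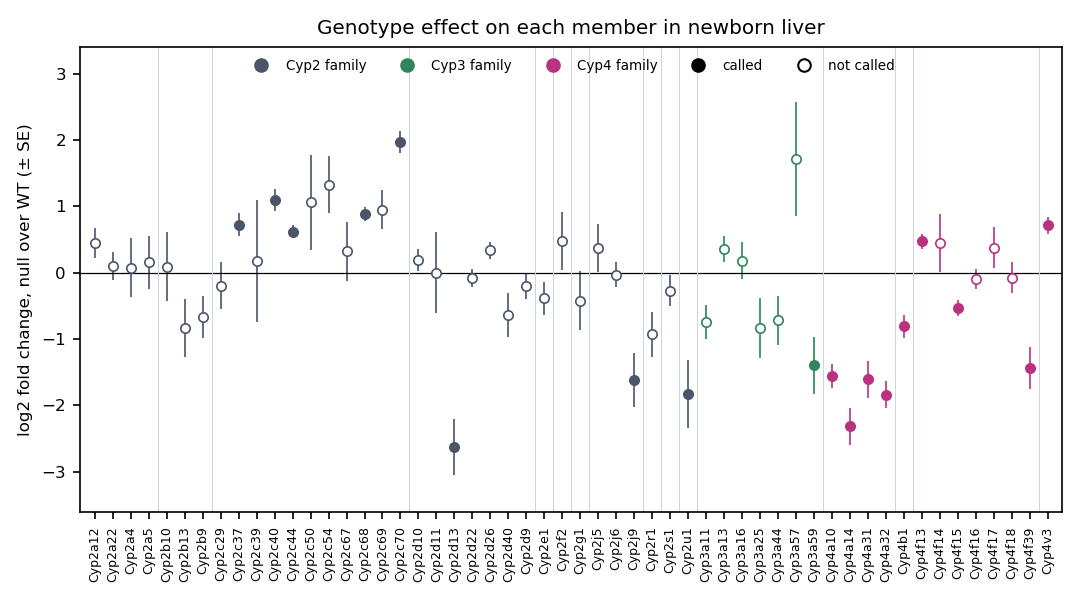
Log2 fold change of null over WT in liver for each of the 54 members, with its standard error from edgeR's fit (3 libraries per genotype); filled points were called and grey lines separate subfamilies. All 4 Cyp4a members lie below 0 between −2.31 and −1.56, and the called Cyp2c members lie above it between 0.62 and 1.97.

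The Cyp4a enzymes, which hydroxylate the far end of medium and long fatty acids and are textbook targets of the fatty acid receptor PPARα, fell in null liver. *Cyp4a14* was at 1112, 1661 and 1025 CPM in WT livers 1, 2 and 3 and at 236, 345 and 182 CPM in null livers 1, 2 and 3. The highest null library was thus far below the lowest WT library. Its log2 fold change was −2.31 (SE 0.28, adjusted p = 0.00292 with edgeR's quasi-likelihood test and Benjamini-Hochberg adjustment, as for all adjusted p-values here). *Cyp4a10* was at 337, 296 and 220 CPM in WT against 108, 96.5 and 85.6 CPM in null liver (−1.56, SE 0.18, adjusted p = 0.00278). *Cyp4a31* was at 150, 225 and 114 CPM in WT against 70.9, 46.0 and 43.8 CPM in null liver (−1.61, SE 0.28, adjusted p = 0.00721). None of these groups overlapped. *Cyp4a32* was the lowest of them, with 30.3, 25.5 and 29.2 CPM in WT against 10.3, 5.94 and 7.69 CPM in null liver (−1.84, SE 0.20, adjusted p = 0.00263).

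The coding sequence of *Cyp4a14* shares no window with another gene, and the rest of its exons was not searched. The sum of the subfamily does not depend on how reads were divided among its copies, but lacks any shared reads that were not counted. That sum was 1742 ± 422 CPM in WT against 413 ± 87.5 CPM in null liver, a ratio of 4.22. Set against the hepatocyte markers of the same library, it was 10.5 to 12.2 CPM per 1000 CPM of markers in WT and 1.56 to 3.27 in null liver. All 4 calls held in the 6 fits with 1 library removed. Of 8 other settings, 8 called *Cyp4a32* and 7 called *Cyp4a10*, *Cyp4a14* and *Cyp4a31*. When all 12 libraries were put in 1 fit, 1 of the 4, *Cyp4a32*, held. That fit estimates the spread of each gene over the lungs as well, null lung 1 among them. The 4 genes and *Cyp4b1* are neighbours on chromosome 4, from *Cyp4a14* (115486200 to 115496142) to *Cyp4b1* (115624725 to 115647723). *Cyp4b1* also fell, from 8.23, 8.54 and 10.1 CPM in WT to 4.56, 5.31 and 5.51 CPM in null liver (−0.81, SE 0.17, adjusted p = 0.0153), again with no overlap, but was not called without WT liver 3.

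**Figure D3:**
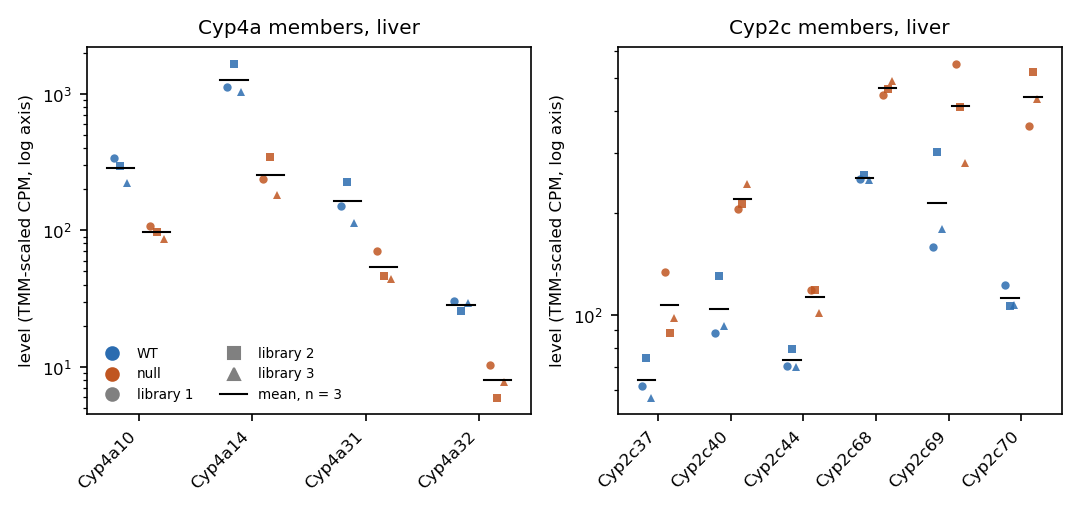
Level in each liver library (TMM-scaled CPM, log axis) of the 4 Cyp4a members on the left and of 6 Cyp2c members on the right, with WT in blue, null in orange, symbols for library 1, 2 and 3 and bars for the means of 3. The genotypes are apart for every gene shown but Cyp2c69, whose lowest null library (280 CPM) lies under the highest WT library (303 CPM).

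Other textbook targets of PPARα were counted from a list, and 7 of its 14 genes fell while 0 rose, where 13.4% of all genes fell. *Fgf21*, the fasting hormone of the liver, was at 1.51, 2.02 and 5.95 CPM in WT against 0.0377, 0.280 and 0.0841 CPM in null liver (−4.48, SE 0.78, adjusted p = 0.00758). The values of null livers 1 and 3 stood for under 3 counts. *Plin2*, a coat protein of lipid droplets, was at 667, 900 and 849 CPM in WT against 192, 286 and 402 CPM in null liver (−1.45, SE 0.27, adjusted p = 0.00889). *Ehhadh* (−1.04) and *Acot1* (−1.0), enzymes of peroxisomal and cytosolic fatty acid handling, fell as well. *Pdk4* was higher in every null library but missed the threshold (1.34, adjusted p = 0.0569). *Ppara* itself was at −0.47 (SE 0.16, adjusted p = 0.0634).

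Among the Cyp2c enzymes the direction was the opposite. *Cyp2c70*, which in rodents hydroxylates bile acids to muricholic acids, was at 122, 106 and 107 CPM in WT livers and at 362, 522 and 433 CPM in null livers. The groups were far apart, and the means of 112 ± 8.82 and 439 ± 80.4 CPM differed 3.92-fold. The log2 fold change of 1.97 (SE 0.17, adjusted p = 0.00201) was the largest rise among the 7 members called higher, and it held in all 6 fits without a library and in the fit of 12 libraries. The coding sequence of *Cyp2c70* shares no window with another gene.

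*Cyp2c40* and *Cyp2c68*, whose products metabolise arachidonic acid and whose reads can be shared, both rose. *Cyp2c40* was at 88.1, 130 and 92.5 CPM in WT against 205, 212 and 243 CPM in null liver (1.09, SE 0.17, adjusted p = 0.00522), and *Cyp2c68* at 252, 259 and 249 CPM in WT against 445, 463 and 491 CPM in null liver (0.88, SE 0.10, adjusted p = 0.00292). *Cyp2c68* varied little, with an SD of 4.70 CPM around 253 CPM in WT. *Cyp2c69*, another close copy, was at 159, 303 and 179 CPM in WT against 551, 409 and 280 CPM in null liver (0.95, SE 0.30, adjusted p = 0.0512), which overlapped and missed the threshold. *Cyp2c37*, which also acts on arachidonic acid, was at 61.7, 74.4 and 56.9 CPM in WT against 133, 88.5 and 97.6 CPM in null liver (0.72, SE 0.17, adjusted p = 0.0194). *Cyp2c44*, an arachidonic acid epoxygenase whose gene lies apart from the others on chromosome 19 (44005022 to 44029208), was at 70.5, 79.2 and 70.0 CPM in WT against 119, 118 and 101 CPM in null liver (0.62, SE 0.10, adjusted p = 0.0067). For these called genes no null library overlapped a WT library. Removing any 1 library kept the calls of *Cyp2c40*, *Cyp2c68* and *Cyp2c44*, while *Cyp2c37* was not called without WT liver 1 or 3, and *Cyp2c69* was called without WT liver 2 or null liver 3.

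Summed over its 11 members, Cyp2c was at 783, 993 and 765 CPM in WT against at 1870, 1856 and 1686 CPM in null liver, a ratio of 2.13. Per 1000 CPM of hepatocyte markers it was 5.37 to 5.80 in WT and 8.21 to 12.3 in null liver. Of the 11 members, 10 had a log2 fold change above 0, and *Cyp2c29*, at 0.41 to 0.738 CPM in WT liver, had −0.20. *Cyp2c54* (1.33, SE 0.43, adjusted p = 0.0558) and *Cyp2c50* (1.06, SE 0.72, adjusted p = 0.302) were higher in every null library than in every WT library but were not called, except *Cyp2c54* without null liver 3 (1.63, adjusted p = 0.0271), and *Cyp2c67* and *Cyp2c39* overlapped.

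**Figure D4:**
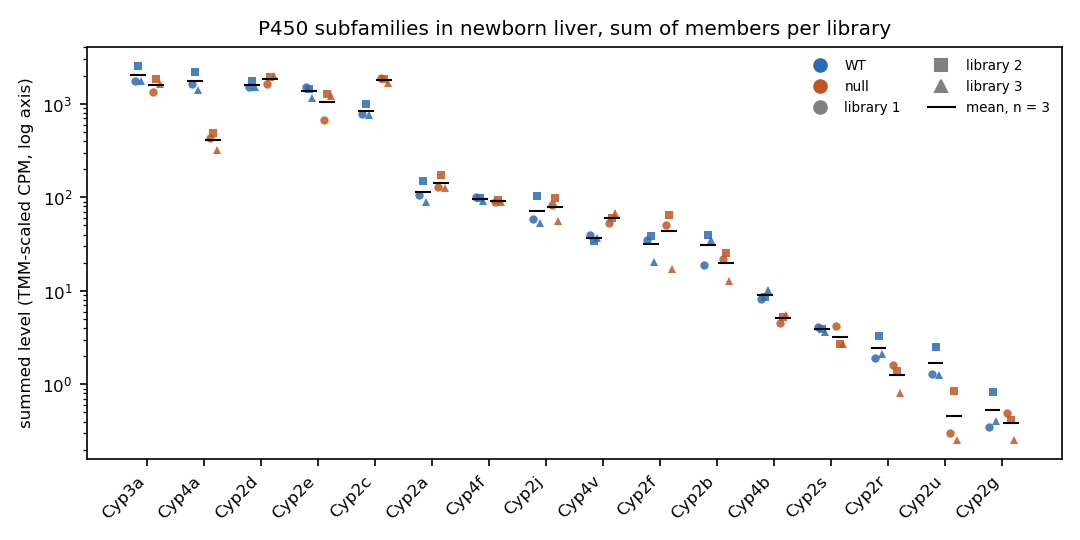
Sum of the members of each subfamily in each liver library (TMM-scaled CPM, log axis), ordered by the WT mean, with WT in blue, null in orange, symbols for library 1, 2 and 3 and bars for means of 3. Cyp4a lies lower in null (320 to 493 CPM) than in WT (1388 to 2208 CPM), Cyp2c lies higher, and Cyp3a, Cyp2d and Cyp2e lie close together or overlap.

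The sum over all members overlapped between the genotypes, with 6895 to 9422 CPM in WT against 6370 to 7929 CPM in null liver. Its make-up differed. Cyp4a gave 20.1 to 23.4% of it in WT and 4.45 to 6.68% in null liver, and Cyp2c gave 10.3 to 11.1% in WT and 23.4 to 29.4% in null liver. Cyp2d gave 18.7 to 21.7% in WT and 24.6 to 27.4% in null liver, and Cyp3a gave 23.4 to 27.1% and 21 to 23.2%. As shares of 1 sum they are not independent of each other.

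The Cyp3a genes, targets of the receptor PXR and the main oxidases of drugs and steroids, had the largest summed CPM in WT liver, at 2023 ± 460. This sum was not divided by exon length, and its spread overlapped that of Cyp4a at 1742 ± 422 CPM, so it does not rank the subfamilies by abundance. *Cyp3a11* was at 649, 1266 and 709 CPM in WT against 549, 587 and 423 CPM in null liver. All null libraries were below all WT libraries, but WT liver 2 was far above the others of its group and the test was not passed (−0.75, SE 0.26, adjusted p = 0.0652, and −0.40 without WT liver 2). *Cyp3a59*, a low relative of *Cyp3a25*, was at 20.04, 12.3 and 9.40 CPM in WT against 2.75, 8.14 and 5.0 CPM in null liver and was called lower (−1.39, SE 0.43, adjusted p = 0.0476), though in only 1 of the 6 fits with a library removed, that without null liver 2. *Cyp3a25* itself had 372, 340 and 259 CPM in WT against 74.0, 310 and 158 CPM in null liver, which overlapped (−0.84, SE 0.45, adjusted p = 0.201). It was at −0.46 without null liver 1, and at −1.49 and called without null liver 2 (adjusted p = 0.0277). *Cyp3a16*, the newborn form, was at 310, 453 and 300 CPM in WT against 252, 503 and 446 CPM in null liver, with no difference beyond the spread (0.18, SE 0.27, adjusted p = 0.651).

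The other abundant liver members were not called. *Cyp2e1* was at 1509, 1424 and 1159 CPM in WT against 674, 1258 and 1197 CPM in null liver (−0.39, SE 0.24, adjusted p = 0.268), where null liver 1 was low. *Cyp2d26* was at 949, 1191 and 981 CPM in WT against 1212, 1377 and 1356 CPM in null liver, apart but by little (0.34, SE 0.13, adjusted p = 0.0837). *Cyp2a12*, which hydroxylates steroids and bile acids, was at 66.4, 87.5 and 51.7 CPM in WT against 96.3, 114 and 69.1 CPM in null liver (0.44, adjusted p = 0.184). Nor did *Cyp2b9* (17.1 to 37.4 CPM in WT, 12.1 to 22.6 CPM in null, adjusted p = 0.153), *Cyp2f2* (20.5 to 38.7 and 17.2 to 64.0 CPM, adjusted p = 0.446) or *Cyp2j5* (25.6 to 59.8 and 30.3 to 63.7 CPM, adjusted p = 0.479) pass.

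Of the lipid-oxidising Cyp4f and Cyp4v genes, which act on leukotrienes, long-chain fatty acids and other lipids, some rose and some fell. *Cyp4v3*, the mouse counterpart of a gene mutated in a crystalline retinal dystrophy, was at 39.1, 34.4 and 37.1 CPM in WT against 52.6, 60.8 and 68.1 CPM in null liver (0.71, SE 0.13, adjusted p = 0.00793). A predicted gene, *Gm45753*, overlaps it on the same strand and shares 12.4% of its windows. *Cyp4f13* rose (0.47, SE 0.11, adjusted p = 0.0184) from 24.8 ± 1.89 to 34.5 ± 1.57 CPM. *Cyp4f15* fell from 52.5, 58.4 and 46.4 CPM to 37.7, 39.6 and 31.7 CPM (−0.53, SE 0.12, adjusted p = 0.0176). *Cyp4f39*, whose human counterpart hydroxylates acyl chains of skin ceramides, fell from 1.47 ± 0.0220 to 0.535 ± 0.173 CPM (−1.44, SE 0.31, adjusted p = 0.0156). No library of these 4 genes overlapped between the genotypes. In the 6 fits with 1 library removed, *Cyp4v3* was called in 6, *Cyp4f15* in 4 (not without WT liver 1 or 2), *Cyp4f39* in 4 (not without WT liver 1 or 3) and *Cyp4f13* in 3 (not without WT liver 2 or 3 or null liver 2). In the fit of all 12 libraries, *Cyp4f13* was called (adjusted p = 0.0397) and *Cyp4v3* (0.429), *Cyp4f15* (0.432) and *Cyp4f39* (0.123) were not.

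The remaining calls were of low genes. *Cyp2j9* was at 3.38, 7.22 and 4.58 CPM in WT against 2.11, 1.96 and 0.841 CPM in null liver (−1.62, SE 0.41, adjusted p = 0.0247), and was not called without WT liver 2 or 3. *Cyp2u1*, a fatty acid hydroxylase, was at 1.27 to 2.52 CPM in WT against 0.252 to 0.839 CPM in null liver (−1.83, SE 0.52, adjusted p = 0.0362), and stayed called in 1 of the 6 fits, that without null liver 2. *Cyp2d13*, listed by RefSeq as a transcribed pseudogene, was at 0.701 to 0.949 CPM in WT against 0.0754 to 0.175 CPM in null liver (−2.63, SE 0.42, adjusted p = 0.00575), close to the smallest level these depths show. Its lowest null value stood for under 3 counts. *Cyp2r1*, a vitamin D 25-hydroxylase, was at 1.93 to 3.26 CPM in WT against 0.799 to 1.62 CPM in null liver and missed the threshold (−0.93, SE 0.34, adjusted p = 0.0766).

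Markers of other cells were read beside these liver results. In null liver, 2 of 6 neutrophil markers rose (*Elane*, 0.67, and *Mpo*, 0.59), 2 of 4 endothelial markers rose, 1 of 5 macrophage markers rose, 1 of 4 tested alveolar type 2 markers fell, and 0 of 5 bile duct, 0 of 3 red cell and 0 of 1 club cell markers changed. The summed neutrophil markers were 1998 to 4194 CPM in WT against 2923 to 4578 CPM in null liver, and overlapped, as the hepatocyte sums did. Their part in the results was not tested.

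Genes that act with the P450 enzymes were counted from further lists, to be read against the 26.9% of all genes that were called in liver. Of 16 genes for electron donors and haem supply, 3 fell and 0 rose. These were *Hmox1*, which degrades haem (−1.48, SE 0.24, adjusted p = 0.00661), *Cyb5b*, a cytochrome b5 (−0.99, SE 0.10, adjusted p = 0.00236), and *Uros* of haem synthesis (−0.70, SE 0.17, adjusted p = 0.0212), while *Por*, the reductase, was at 0.38 (adjusted p = 0.144). Of 24 receptors and factors known to act on P450 genes, 4 rose and 5 fell. The largest changes were of *Hlf* (−1.32), *Nr3c1*, the glucocorticoid receptor (1.02), *Ahr*, the dioxin receptor (1.0), and *Nr1i3*, the receptor CAR (−0.91), and *Nr1i2*, the receptor PXR, was at −0.24 (adjusted p = 0.124). Of 23 conjugating enzymes and transporters tested, 5 rose and 0 fell, among them *Abcb1a* (1.0) and *Gsta4* (0.77). Of 16 genes of other P450 families, 2 fell and 2 rose. *Cyp1a1* fell from 1.62, 13.3 and 2.84 CPM to 0.0377, 0.0699 and 0 CPM (−7.11, SE 1.15, adjusted p = 0.00623), *Cyp1a2* fell (−3.70), and *Cyp27a1* (0.70) and *Cyp51* (0.47) rose.

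The third question was whether the lung showed the same. Of the 54 members, 25 had enough counts to be tested in lung, 0 were called, and 3 had an unadjusted p under 0.05. Of all genes, 0.327% were called there, 0.0898% higher and 0.237% lower, and 25% had an unadjusted p under 0.05. The genotypes did not overlap for 5 members (*Cyp2r1*, *Cyp2s1*, *Cyp4b1* and *Cyp4f16* lower and *Cyp4f17* higher in null), against 36% of all genes. None of the Cyp4a members and 2 of 11 Cyp2c members could be tested in lung. DESeq2 called 2 members, *Cyp2r1* and *Cyp4f16*, both lower, against 15.1% of all genes in either direction.

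**Figure D5:**
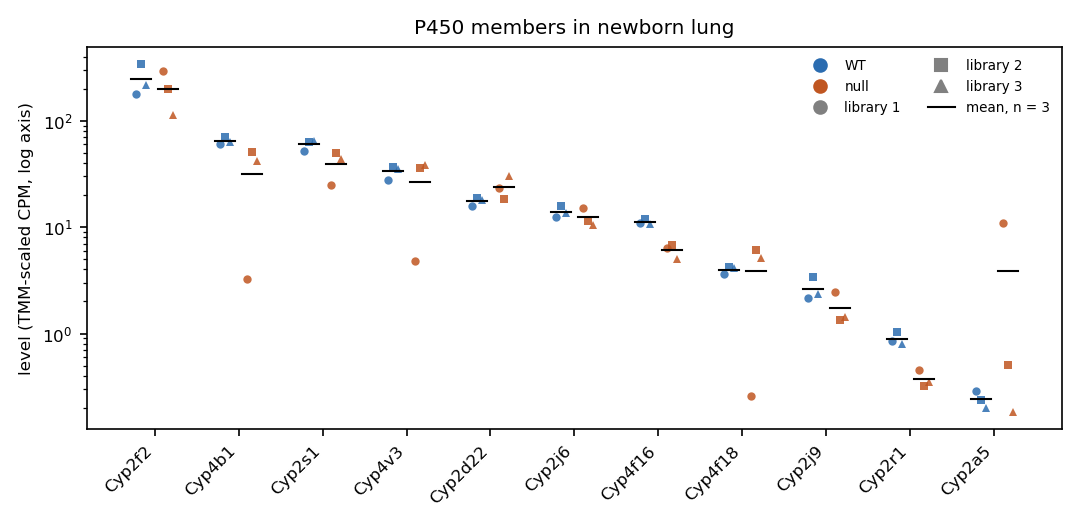
Level of 11 members in each lung library (TMM-scaled CPM, log axis), with WT in blue, null in orange, symbols for library 1, 2 and 3 and bars for means of 3. Null lung 1 (orange circle) lies far below the other lungs for Cyp4b1, Cyp4v3 and Cyp4f18 and far above them for Cyp2a5.

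Much of this rested on null lung 1. *Cyp4b1* was at 60.1, 69.5 and 63.5 CPM in WT lungs and at 3.22, 50.8 and 41.5 CPM in null lungs 1, 2 and 3 (−1.02, SE 0.84, adjusted p = 0.474). *Cyp4v3* was at 27.7 to 36.9 CPM in WT lungs and at 4.82, 35.8 and 38.6 CPM in null lungs, and *Cyp4f18*, a leukotriene hydroxylase of neutrophils, at 3.6 to 4.24 CPM and at 0.257, 6.12 and 5.13 CPM. In the other direction, *Cyp2a5*, the coumarin hydroxylase that is high in liver and nasal mucosa, was at 0.198 to 0.287 CPM in WT lungs and at 11, 0.505 and 0.184 CPM in null lungs (4.0, SE 1.57, adjusted p = 0.187). Null lung 1 lay below all 5 other lungs for 15 members and above them for 4. The share of all genes that lay so is not given here, so these counts are not a result about the members. The club cell markers of null lung 1, at 4158 CPM, were within the 2989 to 5282 CPM of the other lungs, its endothelial markers were at 501 CPM against 1216 to 1815 CPM, and *Cyp2f2* was at 293 CPM within the 112 to 338 CPM of the others. The part of these markers in the levels was not tested.

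Without null lung 1, 31 members could be tested and 5 were called, all lower in null, against 37% of all genes in either direction. The share of all genes called lower in this fit is not given here, so neither the count nor its direction is a result about the members. *Cyp4f16* was at 11, 11.8 and 10.8 CPM in WT lungs and 6.85 and 5.0 CPM in null lungs 2 and 3 (−0.93, SE 0.18, adjusted p = 0.00723), and null lung 1 was at 6.33 CPM. *Cyp2r1* was at 0.842, 1.03 and 0.794 CPM in WT against 0.323 and 0.350 CPM in null lungs (−1.39, SE 0.32, adjusted p = 0.0137), with 0.456 CPM in null lung 1. For these genes the library that was left out lay with the other null lungs. *Cyp4b1* (−0.49, SE 0.12, adjusted p = 0.0184), *Cyp2j9* (−0.92, SE 0.28, adjusted p = 0.0347) and *Cyp2s1* (−0.39, SE 0.13, adjusted p = 0.0483) were called as well. *Cyp2s1* was at 52.4, 63.5 and 64.9 CPM in WT against at 24.7, 49.2 and 43.3 CPM in null lungs 1, 2 and 3.

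The most abundant P450 member of the lung was not called. *Cyp2f2* was at 179, 338 and 214 CPM in WT against 293, 197 and 112 CPM in null lungs (−0.28, SE 0.41, adjusted p = 0.700), and at −0.67 (adjusted p = 0.126) without null lung 1. *Cyp2d22* was at 15.8, 18.9 and 18.0 CPM in WT against 23.4, 18.4 and 30.2 CPM in null lungs (0.46, adjusted p = 0.254), and *Cyp2j6* at 12.4, 15.8 and 13.5 CPM in WT against 15.2, 11.5 and 10.5 CPM in null lungs (−0.16, adjusted p = 0.661). These groups overlapped, except that null lungs 2 and 3 lay below the WT lungs for *Cyp2j6*. With all 6 lungs, 0 genes were called in the lists of electron donors, receptors, PPARα targets, conjugating enzymes and other P450 families. Without null lung 1, where 37% of all genes were called, 7 of 16 electron donor and haem genes were called (2 higher, 5 lower), 9 of 19 receptors and factors (7 higher, 2 lower), 5 of 13 PPARα targets (1 higher, 4 lower), 5 of 18 conjugating genes (2 higher, 3 lower) and 6 of 13 of other P450 families (3 higher, 3 lower). In the same fit, 4 of 6 neutrophil and 3 of 6 club cell markers rose and 0 of 8 hepatocyte markers were called, and their part in the lung results was not tested. Shares of all genes by direction are not given for this fit, so the directions of these calls cannot be read against them.

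Last, the effect of the genotype in lung was set against that in liver in a fit of all 12 libraries. Of 54 members, 0 were called as different between the tissues, against 0.371% of all genes, and 6 had an unadjusted p under 0.05, against 13.9%. Without null lung 1, 0 members were called, against 5% of all genes. Only 25 of the 54 had enough counts to be tested within lung. For the others the lung effect rested on very few counts, with an SE of 1234 for *Cyp2b13* and 290 for *Cyp2c29*. The 0 calls therefore do not show that the tissues agree. The smallest p-values were those of *Cyp4f16* (log2 fold change of lung minus liver −0.80, SE 0.22, adjusted p = 0.163) and *Cyp4f13* (−0.63, SE 0.18, adjusted p = 0.175), and DESeq2 called these 2, against 3.94% of all genes. For *Cyp4a14* the difference was 0.41 with an SE of 1.45 and for *Cyp2c70* −0.59 with an SE of 1.05. Leaving out 1 library moved the difference of *Cyp4a14* from −1.18 without null lung 2 to 3.11 without WT lung 1, and that of *Cyp2c70* from −1.96 to 0.65 without the same libraries. A difference between the tissues was not detectable for these genes.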

How the data were processed

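RNA of liver and lung was made into stranded polyadenylated libraries and sequenced on an Illumina NextSeq as pairs of 75 bases. The authors deposited raw counts, whole numbers of reads per gene symbol in 1 table per library and not normalized, with 0 further columns of values per sample. The submitters' processing notes name FastQC, STAR 2.5.2a, DESeq2 and mm10. The counting program, its annotation and its use of strand are not given in the sources used here, so reads of close copies and of the 13 members that overlap another gene could be counted in more than 1 way.

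From these counts, 27 symbols that a spreadsheet had turned into dates were kept apart, and 0 rows named no gene. Genes were filtered with filterByExpr, scaled by TMM and tested with the quasi-likelihood test of edgeR 4.0.16 in R 4.3.3, with Benjamini-Hochberg adjustment over all genes tested. A call needed an adjusted p under 0.05 and at least 1.2-fold. Null was set against WT within each tissue, liver against lung within WT, and the genotype effects of the tissues against each other over all 12 libraries. The scripts were tested on simulated data. Liver and lung of the same number were taken as 1 pup, which the labels do not state. Their deviations from the group means correlated at 0.21 to 0.29 in WT and 0.39 to 0.49 in null. For unlike numbers the correlations were −0.21 to −0.0052 in WT and −0.47 to 0.28 in null. A block for the pup left the 47 calls of the tissue comparison and the 0 calls of the interaction as they were. DESeq2 1.42.0, other filters and scalings and fits without each library were tried as alternatives.

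Members, lists and named genes were chosen with earlier results of these data known. Given in full were the 6 largest rises and 6 largest falls called in liver whose average log2 CPM was 1 or more, and the most abundant member of each subfamily at 5 CPM or more in a WT tissue, and other calls with their values. From the gene lists, at most 4 called genes each were named by size of change. *Pdk4*, *Ppara*, *Por*, *Nr1i2*, *Cyp2c69* and the other members named without a call were chosen after their values were seen. Depth was 26759463 to 42914295 counts per library, and intervals and floors cover counting error only.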

Additional observations from a re-analysis of the deposited data

How the results depend on the processing

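In liver, 18 members were called. DESeq2 called 22, a fit with the replicate number as a block 20, a minimum of 1 count 16 and a minimum of 10 counts in every library 15, while 1 fit of all 12 libraries called 5 (*Cyp2c70*, *Cyp2d13*, *Cyp2j9*, *Cyp4a32* and *Cyp4f13*). Fits without 1 library called 11 to 18, with 11 without WT liver 3, and 10 members were called in all 6 of them. In lung, where 0 were called, DESeq2 and the fit of all 12 libraries each called 2, and fits without 1 library called 0 to 5, with 5 without null lung 1. Between WT tissues, 47 were called, 14 with a minimum of 10 counts in every library (17 tested), 40 in null libraries and 47 to 51 without 1 library. For the difference between tissues, 0 were called, and DESeq2 called 2. Of all genes, 26.9% were called in the main liver fit and 29.8% with DESeq2. In lung it was 0.327% in the main fit, 15.1% with DESeq2 and 37% without null lung 1. For the difference between tissues it was 0.371%, 3.94% with DESeq2 and 5% without null lung 1. Shares of all genes for the other settings are not given here, so those counts are not results about the members. The library numbers did not pair the genotypes (correlations −0.02, −0.00 and 0.15 in liver and −0.05, −0.05 and 0.10 in lung), and the block called 20 members in liver and 0 in lung. The log2 ratio of the Cyp2a sum in lung was 3.74 and ran from 0.74 to 4.28 without 1 library, 0.74 without null lung 1. That of Cyp4a in lung was −1.64, running from −2.74 to 0.63, with 0.63 without WT lung 1, and that of Cyp4f in liver was −0.10, or −0.23 with CPM per total counts.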
